A study of Mus musculus with 39 samples.

Results

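Mouse embryonic stem cells (ESCs) that were driven towards definitive endoderm (DE) by Activin A carried a different set of microRNAs (miRNAs) after 3 days when Wnt3a had been added as well. A large group of rodent repeat-cluster miRNAs, miR-669d, miR-669b, miR-467e, miR-467b and miR-466a-3p among them, was 1.53-fold to 1.83-fold higher in the 10 members that rose and were measured on every array, and miR-10b was 2.35-fold higher. The neural miRNA miR-9 was 1.98-fold lower, miR-489 was 2.12-fold lower, and miR-19a and miR-18a of the cluster of miR-17 were 1.85-fold and 1.51-fold lower. miR-10a, which differs from miR-10b by 1 base, was detected on all 3 Activin A arrays and on 0 of 3 arrays with both factors.

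The comparison took 6 of the 39 arrays of the series, 3 of cells that received Activin A at 100 ng/ml together with Wnt3a at 50 ng/ml and 3 of cells that received Activin A at the same dose without Wnt3a, all collected at day 3. The members are all arrays that bear these treatment and time labels, and no measured value entered their choice. The cells were of the mouse ESC line TCL-1, which is 1 line. Before treatment they were taken off mouse embryonic fibroblast (MEF) feeders on gelatin and seeded on collagen, and all groups shared RPMI 1640 medium with B27 and, per the methods, sodium butyrate. The supplementary protocol of the study spells that additive sodium byruate, so that its identity is uncertain. Cells given 50 ng/ml Wnt3a alone and control cells given neither factor, with 3 arrays each at day 3, show what Wnt3a did without Activin A. Activin A, a ligand of the TGF-beta family, drives mesendoderm and endoderm fates through Smad2 and Smad3, and Wnt3a acts through beta-catenin and takes part in the formation of the primitive streak. A miRNA guides Argonaute proteins to messenger RNAs mainly through its seed, the bases 2 to 8 from its 5′ end, and miRNAs of a cluster are cut from a shared transcript. Names with an asterisk are those the array's design gives to the less abundant strand of a hairpin.

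The mature sequences of the miRNAs that the results turn on are given here, since members that share a seed can act on the same targets and since near-identical members have to be told apart by the probes. They come from the RefSeq annotation of GRCm38.p6, with the seed in capitals. Of the 39 miRNAs called in this comparison 26 had a sequence in that table, and the other 13 are only named. miR-10a and miR-10b share the seed ACCCUGU and moved in opposite directions. Their only difference is U12A, with the base of miR-10a before the position, counted from the 5′ end, and the base of miR-10b after it. With only that difference, the probes of miR-10a and miR-10b may share signal. miR-10a lies at chr11:96317186-96317208 within the span of Hoxb3, and miR-10b at chr2:74726074-74726096 within the spans of Hoxd3 and Hoxd4.
miR-10a: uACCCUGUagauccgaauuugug
miR-10b: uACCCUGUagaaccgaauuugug
The pair of strands of the miR-9 hairpin and miR-489 fell. miR-9 has 3 genomic copies, at chr3:88215613-88215635, chr7:79505279-79505301 and chr13:83738821-83738843, which the array cannot separate. miR-489 lies on the minus strand at chr6:3721922-3721944 within the span of Calcr.
miR-9: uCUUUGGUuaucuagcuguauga
miR-9*: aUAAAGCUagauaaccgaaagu
miR-489: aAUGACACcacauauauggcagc
miR-18a at chr14:115043867-115043889 and miR-19a at chr14:115044048-115044070 are neighbours in the cluster of miR-17 and carry different seeds.
miR-18a: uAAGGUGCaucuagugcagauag
miR-19a: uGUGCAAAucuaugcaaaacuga
miR-335-3p at chr6:30741354-30741375, within the span of the imprinted gene Mest, and miR-369-3p at chr12:109743466-109743486 and miR-496 at chr12:109739165-109739186, within the span of Mirg in the Dlk1-Dio3 imprinted region, rose with Wnt3a in the presence of Activin A.
miR-335-3p: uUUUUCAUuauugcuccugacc
miR-369-3p: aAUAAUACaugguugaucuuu
miR-496: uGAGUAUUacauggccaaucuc
The passenger strands miR-302b* at chr3:127545238-127545260 and miR-302c* at chr3:127545368-127545389, within the span of Larp7, share the seed CUUUAAC. Among the 26 sequences there were 24 seeds, and these 2 pairs were the shared ones.
miR-302b*: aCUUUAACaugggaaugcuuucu
miR-302c*: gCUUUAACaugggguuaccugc
miR-574-5p at chr5:64970328-64970350 and miR-1187 at chr5:82798964-82798986 are both built of UG repeats and differed at 4 bases over 21 aligned bases, so that their probes may share signal.
miR-574-5p: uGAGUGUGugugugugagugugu
miR-1187: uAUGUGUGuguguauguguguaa

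Each array carried probes for 611 mouse miRNAs and 39 of viruses, and the scanner software summed the background-subtracted spots of each miRNA into a total signal and marked whether it was detected. Levels here are log2 of that signal after quantile normalization, with undetected or very dim signals set to a floor of 2, which is a level of 1.00. Mouse miRNAs detected numbered 285, 286 and 295 on the Activin A arrays and 280, 297 and 312 on the arrays with both factors. The summed signal of an array was 101233 to 130965 with Activin A and 95060 to 117163 with both, the median local background 38 to 39 against 35 to 36, and 0 spots were saturated. The root-mean-square SD between replicates was 0.15 with Activin A and 0.20 with both, and with 3 arrays a group the precision of each value is limited by their number. The labels do not say whether the 3 arrays of a group came from separate cultures, so that p-values measure only the spread between these arrays. In a bulk sample, fewer cells of a type and less of a miRNA in each cell cannot be told apart.

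A further limit bears on every difference between the 2 groups. All 3 Activin A arrays lay on 1 slide, scanned in the same session as the Wnt3a and control arrays of day 3, and all 3 arrays with both factors lay on another slide of a later scan session. The addition of Wnt3a and the slide therefore cannot be told apart at day 3. The direction rests on the labels of the scanner files. In the processed table of the series 18 of 39 columns, those of all 6 arrays used here included, held the values of another array, with Activin A and Activin A plus Wnt3a exchanged. If the scanner labels were the wrong ones, every sign of the difference between both factors and Activin A would turn and the interactions would take other values, while Wnt3a against control would stay as it is.

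The cell type labels were checked against marker miRNAs. The ESC cluster miR-290 to miR-295 was bright in both groups, with miR-294 at 13.32 on all 6 arrays, a value that quantile normalization gives to every array where a miRNA holds the same rank. Of 4 muscle miRNAs 0 were detected on any of the 6 arrays. The liver miRNA miR-122, the gut miRNAs miR-192, miR-194 and miR-215 and the pancreatic miR-216a, miR-216b and miR-217 were undetected as well. The other 3 of the 10 listed endoderm, gut and liver miRNAs, miR-375 and miR-218 among them, were detected on all 6 arrays. The summed signal of that list was 202 to 219 with Activin A and 225 to 249 with both, and miR-218 had means of 6.47 and 6.55. Of 9 mesenchymal and feeder miRNAs 4 were detected, their summed normalized signal was 1215 to 1395 with Activin A and 1227 to 1319 with both, and miR-143, miR-145 and miR-214 were undetected. miR-199a-3p of that list was detected on 2 of 3 Activin A arrays and on 3 of 3 with both, at means of 2.37 and 3.11 (limma adjusted p = 0.312). Of 8 blood miRNAs 4 were detected on any array and 1 on all 6, with a summed signal of 10.7 to 19.5 against 25.2 to 36.2. The member detected on all 6 was miR-155, a miRNA of activated lymphocytes, at 3.42, 3.37 and 3.52 with Activin A and at 3.07, 2.80 and 2.71 with both (-0.57, adjusted p = 0.443). The granulocyte miRNA miR-223 was detected on 1 of 3 Activin A arrays, at 3.02, and on all 3 arrays with both, at 3.91 to 4.17 (adjusted p = 0.0602), while miR-142-3p and miR-451 were undetected on all 6 arrays. miR-150 was detected on 0 of 3 Activin A arrays and 1 of 3 with both, and miR-486 on 1 and 2.

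To ask what Wnt3a added to Activin A, 326 miRNAs that were detected on at least 2 of 3 arrays of a day 3 group were tested with limma over the 12 arrays of that day. A call needed an adjusted p under 0.05 and a difference of at least 1.5-fold. There were 39 calls, all of mouse miRNAs, which is 12% of those tested. Of these 21 were higher with both factors (6.44%) and 18 lower (5.52%). Without the fold limit 96 miRNAs passed (29.4%), 49 higher (15.0%) and 47 lower (14.4%). The 6 arrays did not overlap between the groups for 36 of the 39 calls, and for 143 of all 326 miRNAs (43.9%). Among the calls 27 were detected on all 6 arrays, 15 higher and 12 lower, and of the 13 calls beyond 2-fold only miR-10b and miR-489 were so. The root-mean-square distance between the group means was 0.34 over 246 miRNAs detected on all 12 arrays, against 0.36 between Wnt3a and control and 0.68 between Activin A and control. The distance for added Wnt3a was thus near that for Wnt3a alone and below that for Activin A, values that were not tested against each other.

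The split between directions moved with the scaling. The 21 higher calls made 53.8% of the calls, and scaling to the 75th percentile of the miRNAs detected on all arrays gave 41 higher and 8 lower, or 83.7%, with the median of all differences at 0.11 in place of 0. The 75th percentile over all miRNAs gave 27 and 12, or 69.2%. Relative to the median of all miRNAs, all 39 calls kept their side under both scalings. Normexp background correction, which adds an offset of 50 to every signal and so shrinks the differences of dim miRNAs, left 4 miRNAs past both limits. They were 2 higher strands of the miR-302 cluster and 2 lower strands of the miR-17 cluster, and of the 39 only miR-19a remained among them. Brighter calls also fell under the fold limit, miR-18a at -0.45 and miR-466a-3p at 0.49. The repeat cluster had 0 calls there and a median of 0.10, with 20 of 21 members above 0, against 11 calls and a median of 0.64 in the main fit.

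**Figure D1:**
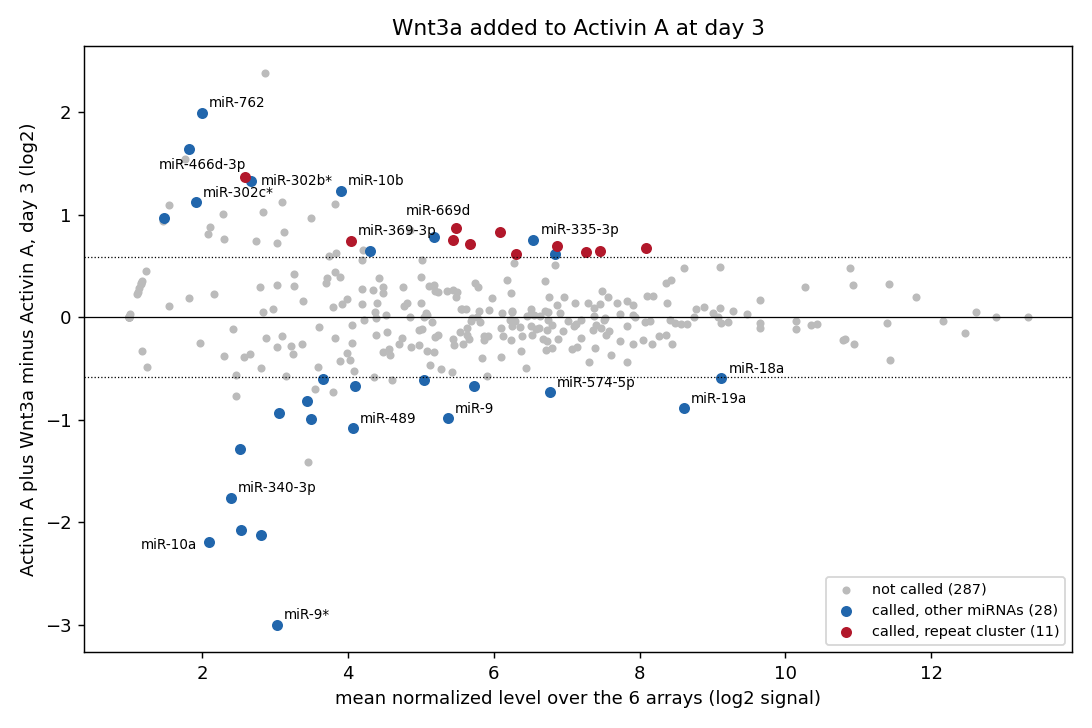
Each point is 1 of 326 miRNAs tested at day 3, with its mean level over the 6 arrays on the x axis (log2 normalized signal) and the difference of Activin A plus Wnt3a and Activin A on the y axis (log2). The 11 called repeat-cluster miRNAs lie together above 0 at middle levels, apart from the 28 other calls, and the 287 miRNAs that were not called centre on 0.

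The largest group of calls came from a repeat cluster. These miRNAs (miR-297, miR-466, miR-467 and miR-669) are encoded in many near-identical copies in an intron of Sfmbt2, a rodent-specific cluster that is known in mouse ESCs and placenta. Of 21 members tested 11 were called higher and 0 lower, against 6.44% called higher among all miRNAs, and 13 passed at any fold. Their median difference was 0.64, against 0 over all miRNAs tested, and the lowest was 0.11. Probes of such similar sequences may share signal, so that the members are not separate observations.

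miR-669d was at 4.97, 5.07 and 5.10 with Activin A and at 5.92, 5.85 and 5.99 with both, a difference of 0.87 ± 0.06 (SE, n = 3 arrays a group, limma adjusted p = 1.18e-05). miR-669b was at 5.58, 5.67 and 5.76 with Activin A and at 6.40, 6.48 and 6.61 with both, a 1.78-fold difference (adjusted p = 0.00119). For these miRNAs the lowest array with both factors stood far above the highest with Activin A. miR-467e was at 5.35, 5.24 and 5.35 against 5.99, 6.03 and 6.05 with both (0.71 ± 0.05, adjusted p = 1.18e-05). miR-467c was at 5.10, 4.93 and 5.16 against 5.90, 5.76 and 5.80 (0.75 ± 0.09, adjusted p = 0.00036). The brightest called member, miR-466a-3p, was at 7.70, 7.88 and 7.67 against 8.48, 8.48 and 8.32 (0.68 ± 0.09, adjusted p = 0.000565). The groups did not overlap for any of them. miR-669a (0.64), miR-669c (0.61), miR-467b (0.64, adjusted p = 6.73e-05), miR-467a* (0.70) and miR-297a* (0.74) rose by like amounts. miR-466d-3p had the largest difference, 1.37 (adjusted p = 0.0327), but it was dim and undetected on 1 Activin A array, so that its size depends on the floor. miR-467a and miR-669f also passed the test but were under the fold limit, each with a difference of 0.33.

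Wnt3a without Activin A moved the same cluster, on other arrays. Against control 12 of its 21 members were called higher and 0 lower, where 8.59% of all tested miRNAs were called higher (10.1% in either direction), with a median of 0.77 against -0.01 over all. These groups share a slide apart from 1 control array, and with the arrays of that slide alone the median was 0.79 and all 21 members were above control. miR-467b was at 6.90, 7.05 and 6.90 in control cells and at 7.73, 7.73 and 7.70 with Wnt3a. miR-669d was at 5.03, 5.16 and 4.99 in control and at 5.71, 5.71 and 5.78 with Wnt3a. For neither miRNA did the arrays with Wnt3a overlap those of control. The interaction, which is the Wnt3a difference with Activin A minus that without it, was called for 1 of the 21, miR-669f, whose difference was 0.33 with Activin A and 1.04 without it (interaction -0.72, adjusted p = 0.00112). For the 11 calls the interaction lay between -0.23 and 0.49, and only that of miR-669a had an adjusted p under 0.05 (0.0275).

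**Figure D2:**
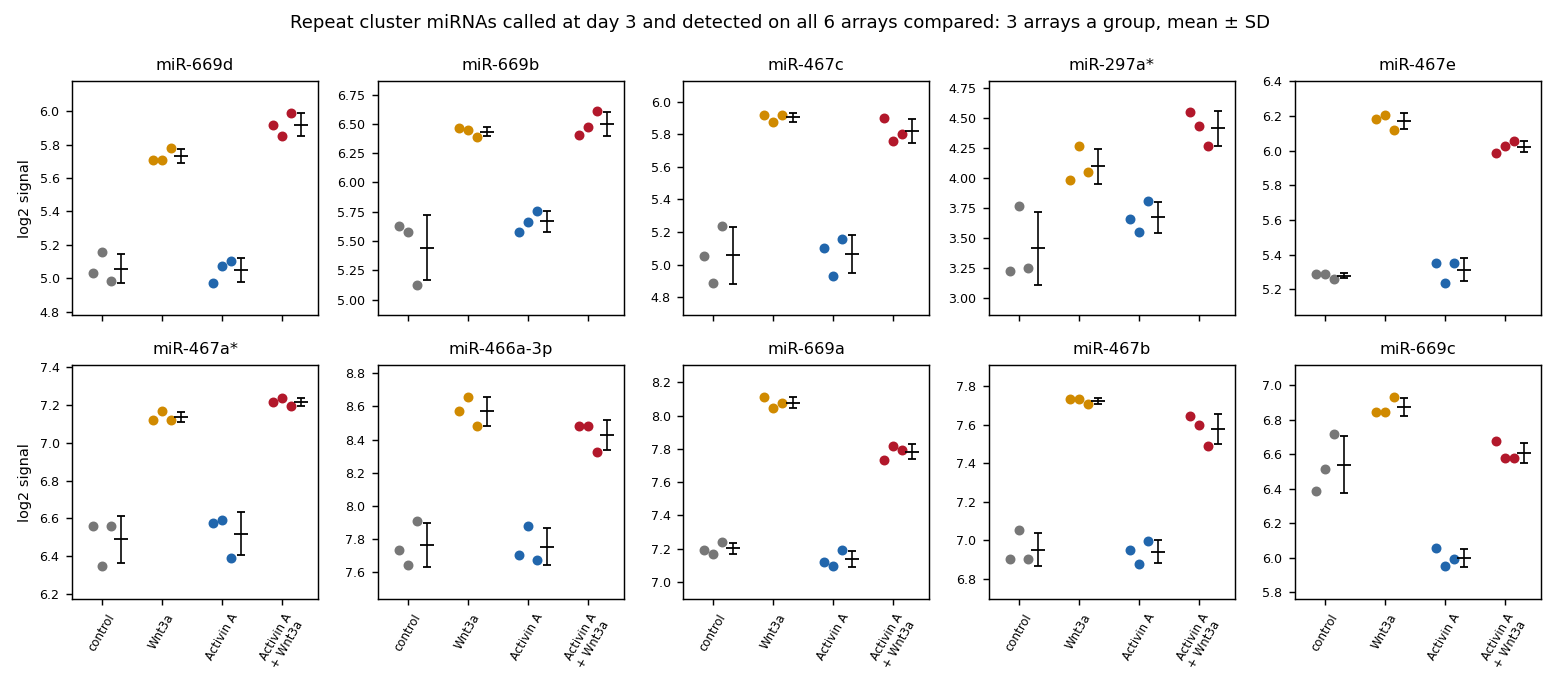
Levels (y axis, log2 normalized signal) of 10 repeat-cluster miRNAs on each day 3 array of the 4 groups (x axis), with points for arrays and bars for the mean ± SD of 3 arrays. In each of the 10 miRNAs both groups given Wnt3a sit above their counterparts without it, control cells for Wnt3a alone and Activin A cells for both factors.

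The miRNAs of the Hox clusters, which mark position along the body axis and answer to posteriorizing signals in embryos, diverged. miR-10b was at 3.34, 3.20 and 3.32 with Activin A and at 4.70, 4.35 and 4.51 with both, a difference of 1.23 ± 0.17 (adjusted p = 0.000764). Wnt3a alone raised it from 3.93, 4.26 and 4.70 in control to 6.05, 6.03 and 6.17 (1.78, adjusted p = 5.42e-05). The interaction of -0.55 did not pass (adjusted p = 0.126). miR-10a was at 3.32, 3.16 and 3.10 with Activin A and undetected on all 3 arrays with both, where it was at least 2.64-fold lower (adjusted p = 2.21e-05). In the absence of Activin A it went the other way, from 3.88, 4.41 and 4.72 in control to 5.65, 5.74 and 5.85 with Wnt3a (1.41, adjusted p = 0.000251), and its interaction was -3.60 (adjusted p = 1.18e-05). Those sizes with both factors rest on the floor, and at a floor of 8 or with quantile normalization of log2 signals miR-10a did not pass. miR-196b, of the same clusters, was undetected on 1 Activin A array and at 3.07 and 2.91 on the others, against 3.37, 3.16 and 3.52 with both (1.02, adjusted p = 0.123). Of 4 tested Hox-cluster miRNAs 1 was called higher and 1 lower, against 6.44% and 5.52% of all miRNAs.

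Among 7 neural miRNAs tested 2 were called lower, against 5.52% of all miRNAs. They are both strands of 1 hairpin, that of miR-9, a regulator of neural progenitors. miR-9 was at 5.87, 5.80 and 5.92 with Activin A and at 4.82, 4.82 and 4.99 with both, a difference of -0.99 ± 0.07 (adjusted p = 1.18e-05). Control cells, at 5.16, 5.32 and 5.33, lay between these groups. Wnt3a alone lowered miR-9 by less, to 5.00, 4.99 and 5.00 (-0.27, adjusted p = 0.0113), and the interaction was -0.72 (adjusted p = 0.001). miR-9* was at 4.48, 4.51 and 4.57 with Activin A and was undetected on 2 arrays with both and at 2.57 on the other (adjusted p = 0.00704). The other strand thus moved in the same direction, although its size depends on the floor. The neuronal miR-124 was at 4.02, 4.03 and 3.74 against 3.84, 3.71 and 3.62 (-0.21, adjusted p = 0.232), a difference whose sign turned under both percentile scalings and normexp correction. miR-128 also passed as lower, under the fold limit, with means of 4.77 with Activin A and 4.40 with both. At any fold 3 of the 7 thus passed as lower, against 14.4% of all miRNAs. miR-128 lost its adjusted p under 0.05 in 9 of 13 alternatives and kept it in 1 of 12 fits with an array left out. miR-219, miR-124* and miR-153 were undetected on all 6 arrays. The summed signal of the 8 neural miRNAs on the array was 122 to 125 with Activin A and 59.6 to 69.5 with both.

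miR-489 was at 4.53, 4.66 and 4.62 with Activin A and at 3.71, 3.52 and 3.34 with both (-1.08 ± 0.08, adjusted p = 1.63e-05). It was undetected on all 6 control and Wnt3a arrays of day 3, so that at day 3 it was detected with Activin A only, and was lower there when Wnt3a was added. With normexp correction its adjusted p was 0.054.

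**Figure D3:**
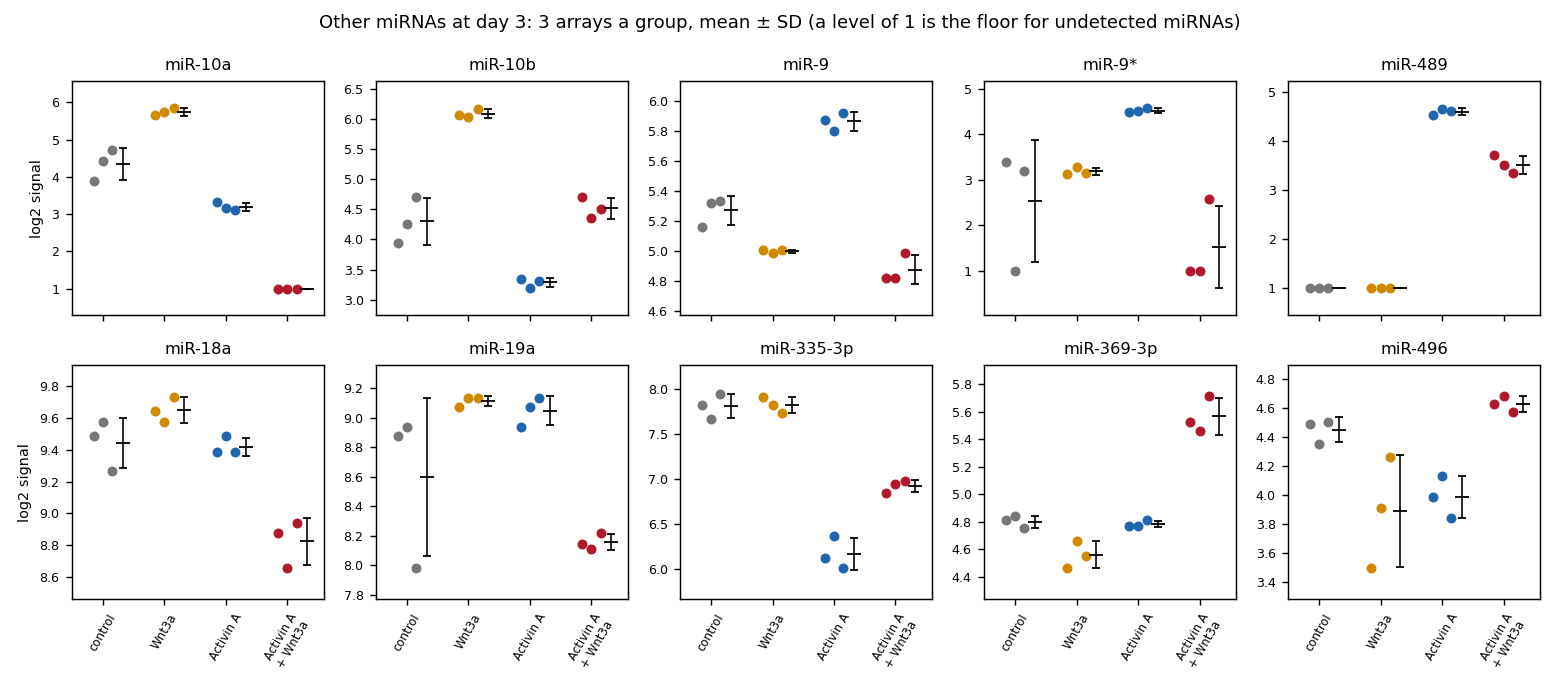
Levels (y axis, log2 normalized signal) of miR-10a, miR-10b, miR-9, miR-9*, miR-489, miR-18a, miR-19a, miR-335-3p, miR-369-3p and miR-496 on each day 3 array of 4 groups (x axis), with points for arrays, bars for the mean ± SD of 3 arrays and undetected values at 1.00. With both factors miR-10a is at the floor on all 3 arrays and miR-10b is above its Activin A arrays, and miR-489 is at the floor on all 6 arrays without Activin A.

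The cluster of miR-17, miR-18a, miR-19a, miR-20a, miR-19b and miR-92a, whose miRNAs favour proliferation, did not move as a block. Of 9 tested strands 2 were called lower, against 5.52% of all miRNAs, 3 passed at any fold as lower (14.4% of all) and 1 as higher (15.0% of all), with a median of -0.26. miR-19a was at 8.94, 9.07 and 9.13 with Activin A and at 8.15, 8.11 and 8.22 with both (-0.89 ± 0.21, adjusted p = 0.0119). miR-18a was at 9.38, 9.49 and 9.38 against 8.87, 8.66 and 8.94 (-0.60 ± 0.10, adjusted p = 0.00186). Both are bright, and neither lost its adjusted p in any setting or with any array left out. miR-17, from the same transcript, went the other way, from 8.07, 8.07 and 8.11 to 8.26, 8.26 and 8.36 (0.21, adjusted p = 0.0118). miR-18a* also fell, by 0.42 (adjusted p = 0.0363), with a sign that turned under scaling to the 75th percentile of detected miRNAs and under normexp correction. For miR-19b (-0.42, adjusted p = 0.269), miR-20a (-0.22, adjusted p = 0.136) and miR-92a (-0.26, adjusted p = 0.0796) the test was not passed. Wnt3a alone did not lower miR-18a (0.21, adjusted p = 0.121) or miR-19a (0.51, adjusted p = 0.085), and their interactions were -0.80 (adjusted p = 0.00369) and -1.40 (adjusted p = 0.0106). Control replicate 3 held miR-19a at 7.98, against 8.87 and 8.94 on the other control arrays.

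Other calls detected on all 6 arrays were lower as well. miR-99b* fell by 0.99 (adjusted p = 0.0121) and miR-32 by 0.94, the latter from 3.74, 3.62 and 3.23 to 2.67, 2.21 and 2.88 (adjusted p = 0.0327). miR-574-5p was at 7.10, 7.19 and 7.12 against 6.59, 6.23 and 6.39 with both (-0.73 ± 0.12, adjusted p = 0.00171), and miR-1187, with its like sequence, fell by 0.67 (adjusted p = 0.00425). Both strands of miR-340, from a hairpin within the span of Rnf130, were lower. miR-340-5p was at 4.43, 4.35 and 4.53 against 4.02, 3.62 and 3.66 (adjusted p = 0.0367), and miR-340-3p was at 3.40, 2.71 and 3.71 against 2 undetected arrays and 2.54 (adjusted p = 0.0118). miR-376b*, from the Dlk1-Dio3 region, fell by 0.82 (adjusted p = 0.0106). miR-301b fell by 0.61 (adjusted p = 0.0138), and of the 4 members tested of its family miR-130b also passed as lower, under the fold limit, at -0.26 (adjusted p = 0.00119). The passenger strand of that hairpin, miR-130b*, fell by 0.60 (adjusted p = 0.0141). Of the dimmer calls, miR-31*, miR-1196 and miR-542-3p, named after their values were seen, were detected on all 3 Activin A arrays and on 2, 1 and 1 of 3 arrays with both. miR-542-3p overlapped between the groups. miR-32 lost its adjusted p under 0.05 in 8 of 12 alternatives, and miR-340-5p in 5 of 13. With each array left out in turn, miR-32 kept it in 8 of 12 fits and miR-340-5p in 6 of 12.

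miR-335-3p was at 6.12, 6.37 and 6.01 with Activin A and at 6.84, 6.95 and 6.97 with both (0.76 ± 0.10, adjusted p = 0.000693). Its level in control cells was 7.82, 7.67 and 7.94 and with Wnt3a alone 7.91, 7.82 and 7.73, so that Wnt3a alone left it within 0.01 of control (adjusted p = 0.985). The higher level with both factors therefore lay between Activin A and control. The interaction was 0.75 (adjusted p = 0.00718). The other strand, miR-335-5p, rose from 6.08, 5.78 and 6.14 to 6.37, 6.30 and 6.43 (0.36, adjusted p = 0.0116), under the fold limit.

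The Dlk1-Dio3 imprinted cluster, a long run of miRNAs expressed from the maternal chromosome, gave 2 higher calls among the 42 listed strands tested, near the 6.44% of all miRNAs, and 0 lower. At any fold 4 passed as higher and 9 as lower, against 15.0% and 14.4%, with a median of -0.10. The list does not hold miR-376b*, which comes from the same region and was called lower. miR-369-3p was at 4.77, 4.77 and 4.81 with Activin A and at 5.53, 5.46 and 5.72 with both (0.78 ± 0.07, adjusted p = 6.73e-05). miR-496 was at 3.99, 4.13 and 3.84 against 4.62, 4.68 and 4.57 (0.64 ± 0.16, adjusted p = 0.0166). Wnt3a alone lowered both, by 0.24 (adjusted p = 0.0297) and 0.56 (adjusted p = 0.0258) on the log2 scale, and 23 of the 42 passed as lower at any fold with Wnt3a alone, against 19.3% of all miRNAs. The interactions were 1.03 for miR-369-3p (adjusted p = 0.000209) and 1.21 for miR-496 (adjusted p = 0.00718). miR-154, miR-433 and miR-380-3p, with differences of -0.39, -0.33 and -0.33, were among the 9 that passed as lower.

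The cluster of miR-302 and miR-367 is expressed in primed epiblast and early mesendoderm. The main strands of its miR-302 members, but not miR-367, share the seed core of the miR-290 to miR-295 cluster. With Activin A 7 of its 8 strands passed as higher when Wnt3a was added, against 15.0% of all miRNAs, and 2 of them, the passenger strands miR-302b* and miR-302c*, were called. miR-302b* was at 2.41 and 2.63 and undetected on the other Activin A array, against 3.45, 3.34 and 3.23 with both (adjusted p = 0.0168). miR-302c* was detected on 1 of 3 Activin A arrays, at 2.06, and on all 3 with both, at 2.83, 2.41 and 2.18 (adjusted p = 0.0118). Both are dim, and neither was detected in control or with Wnt3a alone. miR-302a* was at 5.97, 6.03 and 6.03 against 6.52, 6.56 and 6.53 (0.52, adjusted p = 0.000224), and miR-302b at 10.74, 10.81 and 10.74 against 11.13, 11.13 and 10.98 (0.32, adjusted p = 0.0114). The cluster's median was 0.40, and miR-367 was the member that did not pass (-0.21, adjusted p = 0.558). The differences of miR-302a (0.32) and miR-302c (0.16) turned to -0.06 and -0.03 when arrays were scaled by their 75th percentile of all miRNAs.

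Without Activin A the same cluster fell with Wnt3a. Of the 8 strands 3 were called lower, against 1.53% of all miRNAs, and 4 passed as lower at any fold (19.3% of all miRNAs), with a median of -0.30. miR-302b was at 10.27, 10.27 and 10.47 in control and at 9.57, 9.65 and 9.49 with Wnt3a. miR-302a* was at 5.30, 5.24 and 5.43 in control and at 4.57, 4.62 and 4.48 with Wnt3a. The groups did not overlap in either case. The interaction was called for 5 of the 8, against 10.7% of all miRNAs, at 1.29 for miR-302a* (adjusted p = 1.02e-05), 1.08 for miR-302b (adjusted p = 0.000149), 0.93 for miR-302c (adjusted p = 4.34e-06), 0.69 for miR-302a (adjusted p = 0.00223) and 0.68 for miR-302d (adjusted p = 0.00509). Over the other scalings, filters and fits 4 to 7 of the 8 had an interaction call.

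The miR-290 to miR-295 cluster, the main miRNA cluster of undifferentiated mouse ESCs, gave 1 call when Wnt3a was added to Activin A. Of 13 strands tested miR-292-5p was called higher, at 6.61, 6.48 and 6.52 against 7.05, 7.15 and 7.24 (0.61 ± 0.11, adjusted p = 0.00408). miR-290-5p passed as well, at 8.87, 8.87 and 8.81 against 9.27, 9.38 and 9.38 (0.49, adjusted p = 7.81e-05). The median was 0.18. With Wnt3a alone 7 of the 13 were called higher, against 8.59% of all miRNAs, and 11 passed as higher at any fold, against 15.6%, with a median of 0.59. The interaction was called for 2, miR-293* at -1.20 (adjusted p = 0.00486) and miR-295 at -0.59 (adjusted p = 0.0184). miR-293* was undetected on every control array of day 3, so that the size of its interaction rests on the floor. The levels of miR-295, at 12.89 on all 6 arrays, and of miR-294 tie through the normalization at these top ranks, so that a difference between the groups could not show there, and the interaction of miR-295 only repeats its difference with Wnt3a alone.

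Over all miRNAs the interaction was called for 35 (10.7%), 17 higher (5.21%) and 18 lower (5.52%). Of the 39 calls 15 were among them, 3 of the 21 higher and 12 of the 18 lower calls. Wnt3a alone had the same call in the same direction for 11 of the 39, all of them higher calls, the opposite one for miR-10a, and none for 27. Of the 11 higher repeat-cluster calls 9 were also called for Wnt3a alone, as were miR-10b and miR-292-5p. The interaction compares arrays across slides in the same way as the comparison itself does.

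**Figure D4:**
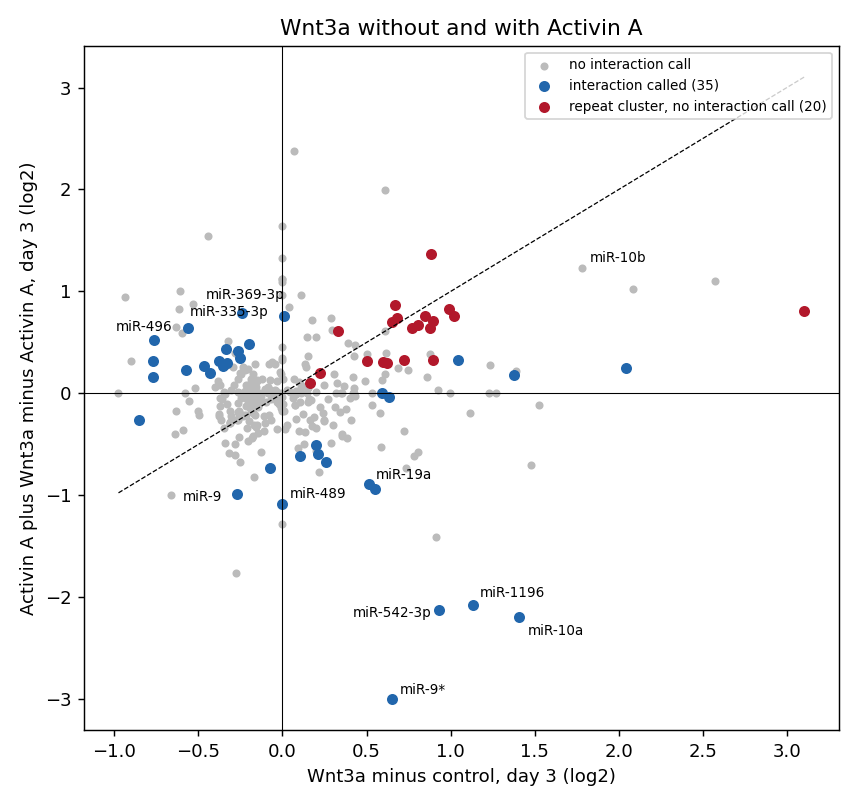
Each point is a miRNA, with the difference of Wnt3a and control on the x axis and that of Activin A plus Wnt3a and Activin A on the y axis (log2, day 3, no arrays shared), and the dashed line marks equal differences. The 20 repeat-cluster miRNAs without an interaction call lie above 0 on both axes, and the 35 miRNAs with an interaction call lie off the line, with miR-10a, miR-9*, miR-1196 and miR-542-3p lowest.

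A few calls rest on detection alone. miR-762 was undetected on all 3 Activin A arrays and at 2.63, 3.30 and 3.04 with both, at least 1.69-fold higher (adjusted p = 0.0196). miR-24-2* was undetected on all Activin A, Wnt3a and control arrays of day 3 and on 1 array with both, and stood at 3.53 and 3.40 on the other arrays, at least 1.33-fold higher (adjusted p = 0.048). miR-7b was detected on 2 of 3 arrays with both, at 2.45 on each, and on none of the other groups, with no bound above 1. For miR-24-2* the 2 Activin A arrays of day 5 that lay on the slide of the arrays with both factors detected it, and the day 5 Activin A array on another slide did not, so that the part of the slide was not tested. The calls of miR-24-2* and miR-7b were lost with any array of the other 3 groups left out, and that of miR-762 with any Activin A array or with replicate 2 or 3 of both factors left out.

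A further 10 miRNAs were taken from those that the study overexpressed or named. Of these miR-125a-5p and let-7e came from earlier work on human cells. The other 8 were chosen on arrays of this series, which makes their count no independent evidence of a direction. The paper brings up miR-24-2* and the pair of miR-196b and miR-196a where it describes its day 5 set. Their day 3 results here therefore do not test that choice. Of the 10, miR-24-2* was called higher and miR-340-3p and miR-10a lower, and 7 were not called. miR-340-5p and miR-301b, which the study also named, are outside this list and are among the lower calls above. miR-181c was at 3.23 and 3.37 and undetected on the other Activin A array, against 3.40, 3.77 and 3.81 with both (1.13, adjusted p = 0.14). miR-338-5p was at 2.57, 2.91 and 2.54 against 3.69, 3.42 and 3.07 (0.72, adjusted p = 0.167). miR-222 was at 3.95, 4.02 and 3.66 against 4.29, 4.62 and 4.66 (0.65, adjusted p = 0.312). In each of these 3 the lowest array with both was above the highest with Activin A, as was so in 1 direction or the other for 43.9% of all miRNAs, and the test took its spread over the arrays of all 4 groups. miR-196a (0.33, adjusted p = 0.312), let-7e (-0.20, adjusted p = 0.831) and miR-125a-5p (-0.09, adjusted p = 0.525) did not pass either, and miR-196b is given above. A criterion for co-regulated miRNAs combined the study's demands, a 1.5-fold or larger gap when Wnt3a joined Activin A and no call for Wnt3a alone, with a change from control in any treatment (more than 2-fold, and an F-test of limma with adjusted p under 0.05) that was added here. It was met by 23 miRNAs at day 3. miR-335-3p, miR-489, miR-9* and miR-574-5p were among them, and miR-10a, miR-10b and miR-9 were not. Of the 10 listed miRNAs, miR-181c, miR-338-5p, miR-222, miR-24-2* and miR-340-3p met it and the others did not. Its gap needs no adjusted p of its own. Thus miR-181c, miR-338-5p, miR-222, miR-199a-3p, let-7c (limma adjusted p = 0.375) and miR-152 (0.334) met it without a call in the comparison itself. miR-10a was kept out by its call for Wnt3a alone, and the study added it to its own set separately.

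Other families gave few calls or none. The epithelial miR-200 family had 5 members tested, 0 called and 1 passed as lower, miR-429 at 8.32, 8.26 and 8.32 against 8.01, 8.07 and 8.05 (-0.26, adjusted p = 0.0114), with a median of -0.13. The miR-23, miR-27 and miR-24 group, apart from miR-24-2*, had miR-23a (0.48, adjusted p = 0.00095) and miR-27a (0.36, adjusted p = 0.00344) pass as higher under the fold limit. The miR-29 family had 3 members tested, and miR-29a passed as lower at -0.58 (adjusted p = 0.00344), just under 1.5-fold. Of the 9 listed strands of the let-7 family 4 were tested and 0 passed, nor did let-7b* (adjusted p = 0.417) or let-7f* (adjusted p = 0.345), which are outside the list. The endodermal and pancreatic miR-375 was at 3.37, 3.25 and 3.20 against 4.60, 4.11 and 4.43 with both, without overlap, but its adjusted p was 0.082.

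The same addition of Wnt3a was compared at day 5 on other arrays, where 17 of 368 miRNAs were called (4.62%), 12 higher (3.26%) and 5 lower (1.36%). Of the 39 miRNAs called at day 3, 29 had a difference of the same sign at day 5 and 4 were called, miR-10b, miR-467b, miR-489 and miR-9*, all with the same sign. miR-10b was 1.83 higher on the log2 scale at day 5 (adjusted p = 0.00771) and miR-489 fell by 0.74 (adjusted p = 0.00771). The repeat cluster was above Activin A in 19 of 21 members at day 5, against 148 of 325 miRNAs tested on both days, with a median of 0.71 and 5 calls. Of the 27 calls detected on all 6 arrays 21 kept their sign, 10 of 10 in the repeat cluster and 11 of the other 17. The 3 higher calls with an interaction had differences of -0.27 (miR-335-3p), -0.09 (miR-369-3p) and -0.06 (miR-496) at day 5, none of which passed. The miR-302 cluster had a median of -0.09 and 0 calls. miR-10a was 0.35 higher (adjusted p = 0.952) and was detected on all 3 arrays with both factors, unlike at day 3. miR-196a and miR-196b, not called at day 3, were 2.51 and 1.74 higher at day 5 (adjusted p = 3.55e-06 and 8.68e-08).

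Day 5 offered a comparison within a slide, since the third Activin A array lay on the slide of the arrays with both factors. Against that array alone, with no test, the repeat cluster's median was 0.70 and 20 of 21 members were higher, and for 19 of 21 all 3 arrays with both exceeded it, against 162 and 93 of the 325 miRNAs tested on both days. miR-10b was 1.80 higher, and miR-489 and miR-9 were at -0.80 and -0.92. A limma fit of the whole series with slide as a fixed block gave the same differences by construction. Only the Activin A arrays of day 5 link the slide of both factors to the other slide. The fit thus adds a test and no second estimate. Of miR-10b, miR-489 and miR-9 only miR-489 passed there (SE 0.123, adjusted p = 7.74e-05). In the repeat cluster miR-467b (adjusted p = 1.06e-05), miR-467a (0.000481), miR-669a (0.014) and miR-669b (0.022) passed, and the other members did not. miR-9* passed as well (adjusted p = 0.0183). miR-10b (SE 1.25, adjusted p = 0.824) and miR-9 (SE 1.03) did not pass in that fit. The Wnt3a array replicate 1 of day 5 stood apart from the other 2, with a root-mean-square deviation of 1.25 against at most 0.40 for the Activin A arrays. Without it 38 miRNAs were called at day 5, 14 of 21 repeat-cluster members among them, and 13 of the day 3 calls, all of the same sign, including miR-9, which was not called with that array in the fit (adjusted p = 0.745).

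**Figure D5:**
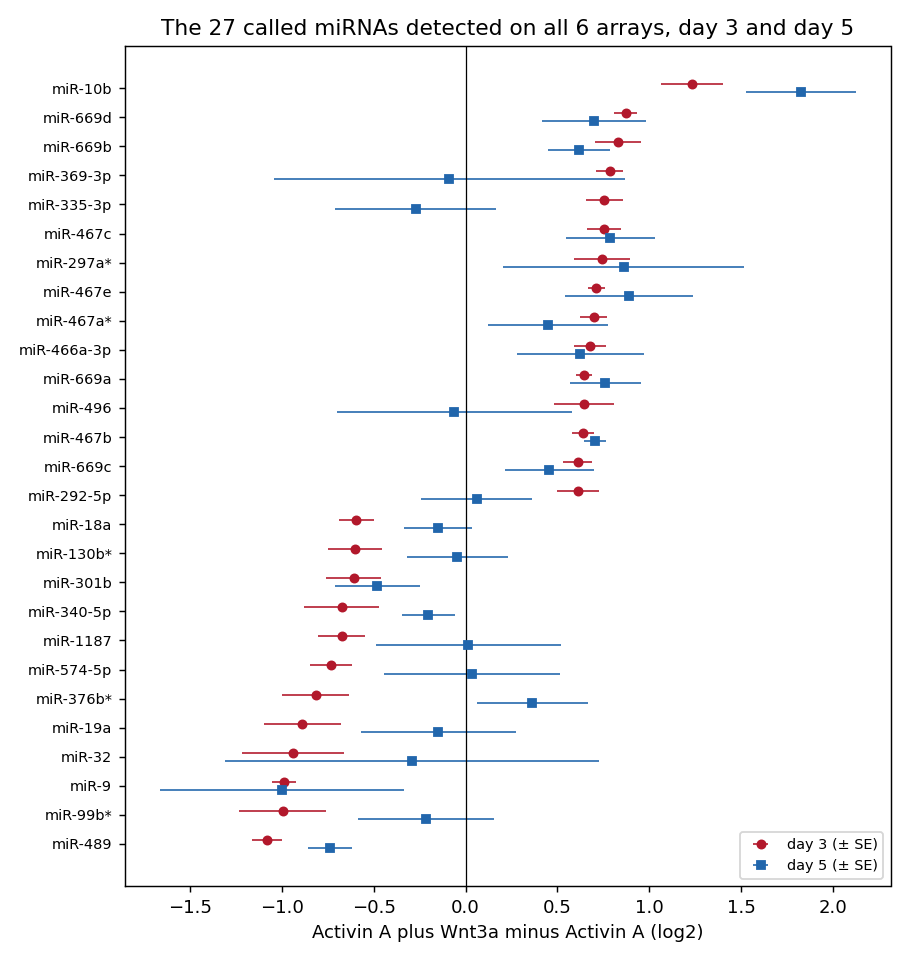
For each of the 27 calls detected on all 6 day 3 arrays (y axis), the difference of Activin A plus Wnt3a and Activin A (x axis, log2) is shown at day 3 as a circle and at day 5, on other arrays, as a square, with bars of ± SE. All 10 repeat-cluster miRNAs lie above 0 on both days, and miR-335-3p, miR-369-3p and miR-496 lie below 0 at day 5 with bars that reach over 0.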

How the data were processed

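The authors deposited Agilent 1-colour scanner output, in which intensity values had been background-subtracted and summed into 1 total signal per miRNA by Feature Extraction (version 9.5.3.1 per the labels, 10.7.3.1 per the file headers), with 0.1 where a miRNA was not detected. Detection flags as deposited, written as 0 or 1 score values by the same software, were used as filters. The deposited series matrix of log2 values was compared with the scanner files and not used otherwise, because 18 of its 39 columns held another array's values. The median spot intensity and background values the authors deposited served for normexp correction.

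Signals of the 39 arrays were quantile normalized with limma 3.58.1 in R 4.3.3, undetected values and values below 2 were set to 2, and log2 was taken. miRNAs detected on at least 2 of 3 arrays of a group were tested by limma's empirical Bayes method over the 12 arrays of a day, with Benjamini-Hochberg adjustment over all tested. A call needed an adjusted p under 0.05 and 1.5-fold. A miRNA undetected on all 3 arrays of a group has a bound, the mean of the detected group over the mean of the lowest detected levels of the others. Intervals of a difference are not printed where its SE is. The comparison, lists and tests were chosen with earlier results of these data known, while the arrays in each group were set by their labels. Named miRNAs were the 12 largest increases and decreases among calls detected on all 6 arrays, calls undetected in 1 group, called members of a list, the study's own list, and members of a list that is described. Figures were drawn with matplotlib 3.10.9. On simulated data of 326 miRNAs the fit recovered 24 of 30 changes of 1 and 25 of 30 of 0.6 (log2), with 2 unchanged miRNAs passing. Alternatives were other scalings, floors, filters and fits, normexp correction, slide and replicate blocks, the methods' analysis of variance and each array left out.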

Additional observations from a re-analysis of the deposited data

Results flagged for a closer look

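For 24 of the miRNAs named here, miR-295 with the limit below, the effect of Wnt3a at day 3 differed with and without Activin A, by limma's test of the interaction (adjusted p under 0.05 and at least 1.5-fold). Values are the Wnt3a difference with Activin A minus that without it, on the log2 scale. On the lower side were miR-9* (-3.65), miR-10a (-3.60), miR-1196 (-3.20), miR-542-3p (-3.05), miR-32 (-1.49) and miR-293* (-1.20), whose sizes rest on arrays at the floor. miR-19a (-1.40), miR-489 (-1.08), miR-340-5p (-0.93), miR-18a (-0.80), miR-9 (-0.72), miR-301b (-0.72), miR-669f (-0.72), miR-574-5p (-0.66) and miR-295 (-0.59) were lower as well. On the higher side were miR-302a* (1.29), miR-496 (1.21), miR-302b (1.08), miR-369-3p (1.03), miR-302c (0.93), miR-335-3p (0.75), miR-302a (0.69), miR-302d (0.68) and miR-92a (0.59). miR-489 was undetected in control and with Wnt3a alone, so that its interaction equals its difference with Activin A. The normalization ties miR-295 on all 6 arrays with Activin A, so that its interaction only repeats the difference with Wnt3a alone. In all 24 the arrays with both factors lay on another slide than the Activin A and Wnt3a arrays, and the part of the slide was not tested. The day 3 groups of 3 arrays were not searched for outlying arrays, unlike those of Wnt3a, Activin A and both factors at day 5.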

How the results depend on the processing

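None of the 39 calls turned sign under any alternative, but the differences of miR-10a, miR-302c*, miR-31*, miR-762 and miR-7b became 0 with quantile normalization of log2 signals, as did those of miR-302c* and miR-7b at a floor of 8. There were 11 that kept an adjusted p under 0.05 under every alternative that could be run, 8 of these in the repeat cluster beside miR-18a, miR-19a and miR-9*. Without each day 3 array in turn 28 kept it. The alternatives that lost most were quantile normalization of log2 signals (16 of 39), all 39 arrays in 1 fit (15) and normexp correction (10).

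The comparison of day 3 gave 39 calls, 21 higher and 18 lower, Wnt3a against control 33, the interaction 35, day 5 17 and the criterion for co-regulation 23. With normexp correction these became 4, 2, 2, 8, 8, 0 and 1. The offset shrinks the differences of dim miRNAs by construction, and brighter calls such as miR-18a and miR-466a-3p also fell under the fold limit. Without the fold limit they were 96, 49 and 47, then 114 and 74. Scaling to the 75th percentile of detected miRNAs gave 41 higher and 8 lower. Requiring detection on all arrays gave 25 calls with 10 lower, 8 at day 5 and 4 by the criterion, from fewer miRNAs tested. A floor of 8 gave 10 at day 5 and 9 by the criterion. Day 5 had 37 calls with only the groups compared, 29 with the methods' analysis of variance and 8 with the Activin A array of the shared slide alone, an alternative added after the data had been seen. All 39 arrays in 1 fit gave 22 interactions. Beyond what construction shows, the cause was not tested.

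With 1 array left out the calls numbered 28 to 40, the higher 16 to 24, the lower 11 to 19 (11 without Activin A plus Wnt3a replicate 2), Wnt3a against control 32 to 37, the interaction 26 to 48, day 5 12 to 38 (38 without Wnt3a replicate 1) and the criterion 17 to 26. Some members that were not called turned sign. With the 75th percentile of detected miRNAs let-7e was at 0.0348, miR-291a-3p at 0.0131, miR-124 at 0.34 and miR-18a* at 0.0711. With that over all miRNAs miR-291a-5p was at -0.0732, miR-292-3p at -0.0895, miR-302a at -0.0637, miR-302c at -0.0285, miR-124 at 0.14 and miR-17* at -0.12. Quantile normalization within day put miR-293 at 0.0033 and miR-467e* at -0.24, and normexp correction put miR-124 at 0.0294, miR-18a* at 0.0054 and miR-466g at -0.0158. With 1 array left out miR-293 ranged from -0.22 to 0.15, miR-17* from -0.0499 to 0.0914 and miR-467e* from -0.14 to 0.60.

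Replicate numbers were not taken to pair the arrays, since deviations of same-numbered arrays correlated at 0.067, 0.396 and -0.168 between these groups. With the replicate number as a block there were 34 calls, 18 higher and 16 lower, 33 for Wnt3a against control, 33 interactions, 16 at day 5 and 23 by the criterion. Slide as a random block gave 36 calls (correlation 0.0261). Slide as a fixed block could not be fitted for this comparison or the interaction, since no slide held both groups, and gave 24 for Wnt3a against control and 15 at day 5. The criterion was not run with a fixed slide or with only the groups compared. The sizes of dim miRNAs depend on the floor.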
